A study of Gossypium barbadense and Gossypium hirsutum with 8 samples.

Results

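The comparison described here set the 3 high-yielding backcross inbred lines of a cotton cross (HY1, HY2 and HY3) against their high-yielding parent HYP, the Gossypium hirsutum cultivar SG747. It uses 4 of the 8 arrays of the series for the contrast and all 8 for scaling. A probe set, the group of probes on an Affymetrix array that measures one target sequence, was taken up when all 3 lines differed from HYP in the same direction by at least 1 unit on the log2 scale. This criterion was met by 44 of 14417 probe sets tested (0.305%), 30 higher (0.208%) and 14 lower (0.0971%) in the HY lines. These 44 were selected by the contrast itself, so their differences from HYP are a description and carry no test, and with 1 array of HYP the spread of the parent is unknown.

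The series profiled fibre taken from ovules at 10 days after flowering. Each of the lines HY1 (labelled NMGA144), HY2 (NMGA017) and HY3 (NMGA026) had 1 array, as did the high-yielding parent HYP (SG747). The low-yielding lines LY1 (NMGA066), LY2 (NMGA095) and LY3 (NMGA023) and the low-yielding parent LYP, the G. barbadense cultivar Giza75, also had 1 array each. All 6 lines derive from backcrosses between the 2 species, yet the labels list HY lines under G. hirsutum and LY lines under G. barbadense. The series text gives the names of HY1 and HY3 the other way round from the sample labels, which leaves the group as it is. Each line is a single inbred genotype, and the labels do not say how many plants gave the fibre or at which of the field sites it was picked.

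Cotton fibres are single cells of the seed coat epidermis that elongate to an extreme length within a few weeks. Elongation is driven by turgor and by loosening of the primary wall, and it precedes the deposition of the cellulose-rich secondary wall. A backcross inbred line carries a fixed mixture of chromosome segments of both parents. A transcript level in such a line can therefore lie at that of either parent, between the parents or beyond both.

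The values were MAS5 signals, a background-corrected brightness per probe set on a linear scale, and the files pair the probe sets with no gene names. No fibre marker could therefore be checked and no role is given for any probe set. At most 2 probe sets higher and 2 lower are given by their array identifier. The others carry a letter (A to P, without I and O, for the first 14 higher, and Q to Z for the first 10 lower) or a rank. Ranks run from the largest to the smallest distance between HYP and its nearest HY line. Signals are as deposited; differences in log2 units come from log2(signal + 16) after quantile normalization of the 8 arrays.

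HYP lay within the range of its lines in median signal and in the 5′ to 3′ control ratios, and outside it in mean and highest signal. The median signal over the array was 13.5, 26.0 and 15.7 in HY1, HY2 and HY3, against 22.3 in HYP. The ratio of 5′ to 3′ signal of the control transcript ss1, which drops when RNA is degraded, was 0.108, 0.408 and 0.186 in the HY lines, against 0.211 in HYP. The same ratio of actin was 0.124 to 0.217 in the HY lines and 0.189 in HYP, and that of ubq11 was 0.266 to 0.658 in the HY lines and 0.484 in HYP. The mean signal was 170, 251 and 182 in HY1, HY2 and HY3, against 264 in HYP, above all 3 lines. The highest signal was 12307.8, 15508.2 and 12298.6 in the HY lines, against 12007.5 in HYP, below all 3. LY1, LY2, LY3 and LYP, which also entered the scaling, had median signals of 36.3, 30.5, 13.2 and 17.0. Their ss1 ratios were 0.428, 0.324, 0.271 and 0.345. The part of these 6 measures in the differences below was not tested.

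Most probe sets lay close to HYP in the HY lines. The median difference between the mean of the HY lines and HYP was -0.03 over the 14417 probe sets. Single lines passed a distance of 1 log2 unit more often than all 3 together: 2.54% of probe sets were higher and 2.16% lower in HY1, 3.82% and 1.6% in HY2, and 2.79% and 2.35% in HY3. The 3 lines thus shared 30 of the 366, 551 and 402 probe sets that were higher in HY1, HY2 and HY3, and 14 of the 312, 231 and 339 that were lower.

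**Figure D1:**
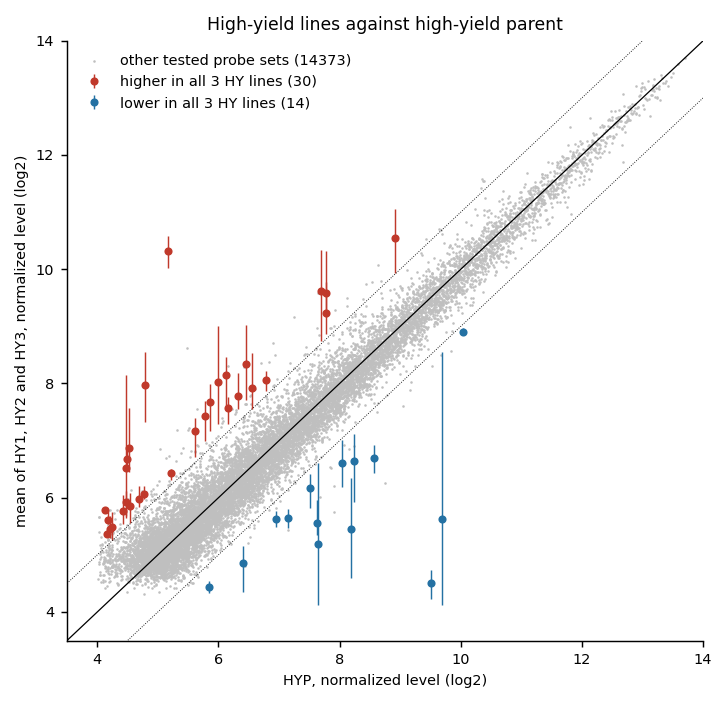
Normalized level (log2) of every probe set tested, with the mean of the 3 HY lines on the vertical axis against the single HYP array on the horizontal axis. Red and blue points are the 30 higher and 14 lower probe sets with bars over the range of the 3 lines, the solid line marks equal levels and the dotted lines 1 log2 unit. The 44 lie outside the dotted lines with every line, and most grey points lie between them.

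The balance of higher against lower depended on the scaling. On the deposited values, where the median difference of all probe sets tested was -0.38, 9 were higher and 50 lower. With each array centred on its median the counts were 25 and 33 (median difference of all probe sets -0.21), and with cyclic loess 46 and 17. A pseudocount of 1 gave 210 and 36, and one of 64 gave 5 and 5. All 44 probe sets kept the direction of all 3 lines under the 6 other scalings and pseudocounts. Apart from ties, quantile normalization fixes this direction by the rank of a probe set within each array. The other pseudocounts and the normalization of 4 arrays alone therefore could not change it. Only the deposited values, median centring and cyclic loess could. The criterion was met under every setting by 8 of the 44: A, B and C among the higher and Q, R, S, T and Y among the lower. At least 2 log2 units in all 3 lines was reached by 4 probe sets, which were A, B, C and Q.

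**Figure D2:**
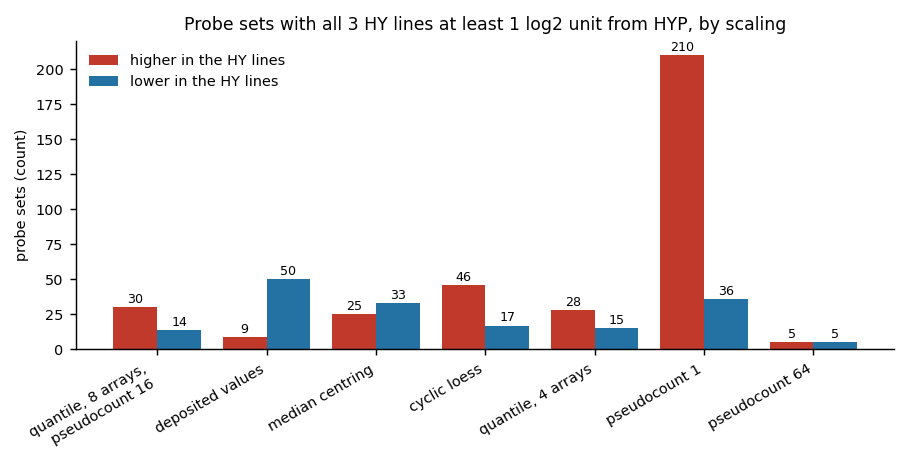
Number of probe sets with all 3 HY lines at least 1 log2 unit above (red) or below (blue) HYP, under the scaling used here (left) and 6 other settings. Higher probe sets outnumber lower ones 30 to 14 with quantile normalization and are outnumbered 9 to 50 on the deposited values.

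The largest difference belonged to probe set RPTR-Ghi-U57609-2_s_at (A). Its signal was 962.5 in HY1, 1180.4 in HY2 and 1273.4 in HY3, against 21.2 in HYP. The lines averaged 1139 ± 160 (SD, n = 3), and their normalized level stood 5.16, 4.85 and 5.41 log2 units above HYP. All 3 lines lay far above the parent and close to each other. The signal was also high in LY1, LY2 and LY3, at 8500.0, 1278.9 and 2890.7, and low in LYP, at 16.3. Both parents were thus near the bottom of the scale and all 6 lines far above them. The prefix RPTR marks 52 reporter control probe sets on this array, of which 50 stayed at or below a signal of 61.3 on every array. The other exception ranged from 7985.1 to 11006.6 over the 8 arrays, parents included. What probe set A detects in the lines is not given in the files.

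Probe set Ghi.4298.3.S1_at (B) showed the same arrangement at a lower level. It had 261.6, 191.4 and 188.9 in HY1, HY2 and HY3, against 12.6 in HYP, and the lines averaged 214 ± 41.3 (SD, n = 3). The differences from HYP were 3.75, 2.53 and 3.27 log2 units. It had 212.4, 223.9 and 221.8 in LY1, LY2 and LY3, against 14.2 in LYP. Both parents lay below all 6 lines. The deposited signals of the 6 lines were close to each other, while the normalized levels of the HY lines spanned 1.22 log2 units. One further probe set on the array shares the first part of this identifier and was near background everywhere, at 2.0, 0.4 and 2.7 in the HY lines and 0.9 in HYP.

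Probe sets C, D and E were also low in HYP, but with lines in the low range of signals. Probe set C had 68.5, 111.1 and 53.5 in HY1, HY2 and HY3, against 7.1 in HYP, and 268.8, 73.7 and 30.1 in LY1, LY2 and LY3, against 1.1 in LYP. Probe set D had 53.1, 96.5 and 125.3 in the HY lines, against 7.6 in HYP. Its LY lines (106.5 to 118.6) and LYP (42.0) were all above HYP as well. Probe set E had 24.8, 50.1 and 28.4 in the HY lines, against 1.4 in HYP, and its normalized differences were the most even of these, at 1.68, 1.62 and 1.70 log2 units. The identifiers of C and E end in _x_at, which marks probes that can also bind other transcripts.

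**Figure D3:**
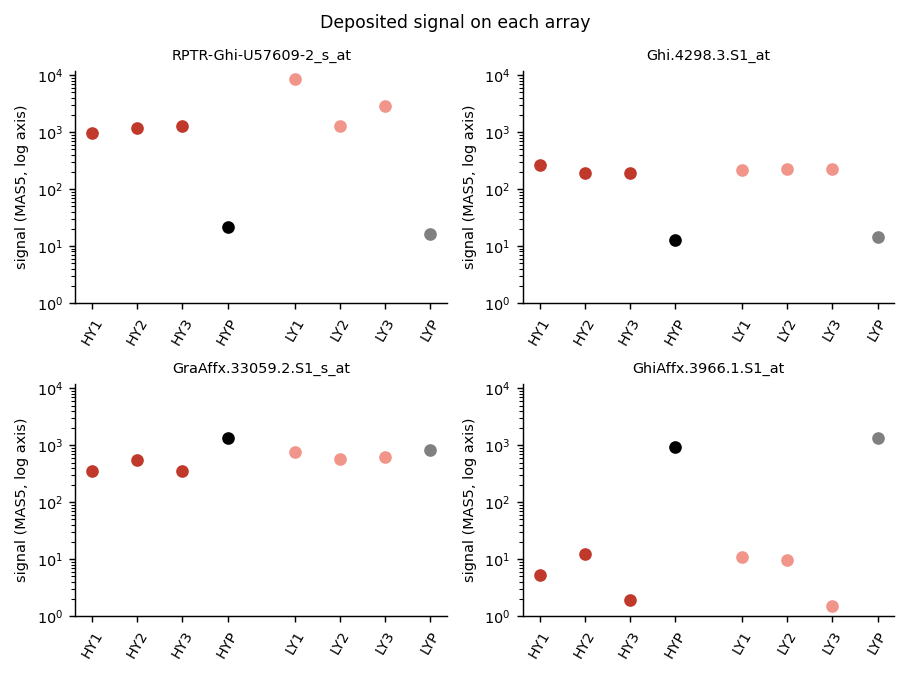
Deposited signal (log axis) on each of the 8 arrays for the 4 probe sets given by identifier, with HY lines in red, HYP in black, LY lines in pink and LYP in grey. In the upper panels both parents lie below all 6 lines, in the lower right panel both parents lie above all 6 lines, and in the lower left panel HYP is highest.

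A second group of higher probe sets had LYP as the brightest of the 8 arrays, with the HY lines between the parents. Probe set F had 226.1, 415.0 and 129.9 in HY1, HY2 and HY3, against 60.2 in HYP, while LYP had 1950.3. Probe set L had 133.8, 607.4 and 226.0 in the HY lines, against 82.0 in HYP, while LYP had 2786.1. The probe set ranked 23 had 332.6, 612.7 and 703.2 in the HY lines, against 253.3 in HYP, while LYP had 2537.9. In these 3 the HY lines were 1.45 to 2.01 log2 units above HYP on average and 2.18 to 3.16 below LYP. None of the 3 met the criterion on the deposited values. L and the probe set ranked 23 also missed it with median centring and with a pseudocount of 64. The LY lines were uneven in the same probe sets: LY1 and LY3 had 615.5 and 848.2 for F, 1035.6 and 1318.1 for L and 2135.3 and 1788.7 for the probe set ranked 23, while LY2 had 233.2, 153.5 and 394.1.

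In the normalized levels LYP lay above all 3 HY lines for 11 of the 30 higher probe sets, within their range for 7 and below all of them for 12. Of the 14 lower probe sets, LYP lay above all 3 lines for 5, within their range for 5 and below them for 4. These positions share the HY arrays with the criterion and are given as an order of levels only. The same split was not counted over all probe sets tested, so the counts cannot be set against it. HYP and LYP belong to different species, and equal binding of the probes to the transcripts of both was not tested.

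Probe sets G and K differed between the HY lines. Probe set G had 440.0, 662.9 and 1043.6 in HY1, HY2 and HY3, against 253.1 in HYP. Probe set K had 138.5, 186.0 and 395.7 in the HY lines, against 52.8 in HYP. HY3 was the highest line in both, 2.55 and 3.01 log2 units above the parent, while HY1 and HY2 lay at 1.29 to 1.76. A different line led elsewhere: for the probe set ranked 26, HY2 had 1444.0 against 303.9 in HY1 and 707.5 in HY3, with 235.4 in HYP. The probe set ranked 27 had the highest mean signal in the HY lines among the 30, with 716.7, 2258.0 and 1321.1 in HY1, HY2 and HY3, against 606.7 in HYP. It ordered the 3 HY lines in the same way as the probe set ranked 26, with HY2 on top, and both identifiers end in _x_at, so the probes of either may bind related transcripts. Neither met the criterion on the deposited values or with median centring.

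For probe sets J, M and N the HY lines lay above both parents. Probe set J had 85.9, 305.8 and 157.4 in the HY lines, against 46.2 in HYP, with 37.2 in LYP. Probe set M had 116.6, 233.0 and 206.4 in the HY lines, against 72.6 in HYP, with 25.9 in LYP. Probe set N had 120.1, 148.8 and 138.9 in the HY lines, against 42.2 in HYP, with 29.8 in LYP. The mean of the HY lines was 1.45 to 1.80 log2 units above HYP in these 3. The LY lines were above LYP as well for J (135.0 to 191.2) and M (126.8 to 588.0). For N this held for LY1 and LY3, 1.00 and 2.37 log2 units above LYP, while the normalized level of LY2 differed from that of LYP by -0.04.

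The remaining higher probe sets were mostly dim in HYP. In all, 16 of the 30 (53.3%) had a HYP signal under 30, against 24.5% of the probe sets tested; the HYP level is itself part of the criterion. Probe set H had 24.0, 39.7 and 21.8 in the HY lines, against 2.2 in HYP. Probe set P had 22.6, 338.1 and 25.0 in the HY lines, against 6.6 in HYP, so that 1 line stood apart from the others by more than they stood from the parent. Over the 30, the mean of the HY lines was 1.21 to 5.14 log2 units above HYP, with a median of 1.51. Of the 30, 17 had a mean level above the median of the probe sets tested.

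Among the lower probe sets the largest difference was that of GhiAffx.3966.1.S1_at (Q), which is named here after its values were seen because its mean level was below the limit set for naming. Its signal was 5.4, 12.2 and 1.9 in HY1, HY2 and HY3, against 945.3 in HYP. The normalized differences were -4.94, -4.78 and -5.28 log2 units. It was likewise dim in LY1, LY2 and LY3, at 10.8, 9.8 and 1.5, against 1338.7 in LYP. This is the mirror image of probe sets A and B: both parents were bright and all 6 lines were near background.

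The one lower probe set that met the limit for naming was GraAffx.33059.2.S1_s_at, ranked 12. It had 357.3, 556.0 and 349.9 in the HY lines, against 1329.8 in HYP, and the lines averaged 421 ± 117 (SD, n = 3). Its differences of -1.07, -1.14 and -1.19 log2 units were small but even across the lines. LYP had 835.7 and the LY lines 578.9 to 773.7, so that the HY lines had the lowest deposited signals of the 8 arrays for it. In the normalized levels LY2 lay lower still, 1.26 log2 units below LYP. GraAffx.33059.2.S1_s_at did not meet the criterion with a pseudocount of 64. A tested probe set that shares the first part of its identifier had differences from HYP of -0.44, -0.93 and 0.25 in HY1, HY2 and HY3.

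Several lower probe sets were bright in HYP alone among the parents. Probe set T had 69.5, 95.0 and 63.3 in HY1, HY2 and HY3, against 472.9 in HYP, with 6.3 in LYP. Probe set Z shares the first part of its identifier with T, so both were designed from one cluster of sequences, and it had 66.9, 60.4 and 87.6 in the HY lines, against 365.4 in HYP, with 5.8 in LYP. For both, LY2 was the brightest line, at 369.9 for T and 278.9 for Z, while LY1 and LY3 stayed between 20.6 and 41.9. Their HY lines thus lay between the parents, and the 2 probe sets are not independent observations.

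Probe set Y split the HY lines. It had 261.7 in HY1 but 1.5 in HY2 and 1.8 in HY3, against 1068.9 in HYP, with 3.0 in LYP. The differences were -1.14, -5.57 and -5.47 log2 units, the widest spread between lines of all 44. The LY lines were at 1.9, 1.8 and 23.0. The probe set ranked 13 was uneven too, with 8.9, 109.6 and 1.1 in HY1, HY2 and HY3, against 228.5 in HYP and 4.3 in LYP.

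Probe sets R and S were lower with less extreme levels. Probe set R had 5.8, 88.3 and 18.9 in the HY lines, against 352.4 in HYP. Probe set S had 16.2, 62.0 and 18.2 in the HY lines, against 225.9 in HYP. HY2 was the line nearest to HYP in both. Probe set X had 20.7, 37.3 and 26.9 in the HY lines, against 129.2 in HYP, with 177.3 in LYP, above HYP. Probe sets U, V and W and the probe sets ranked 11 and 14 completed the 14, with mean differences between -1.35 and -1.55. Over the 14 the mean of the HY lines was 1.13 to 5.0 log2 units below HYP, with a median difference of -1.58.

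**Figure D4:**
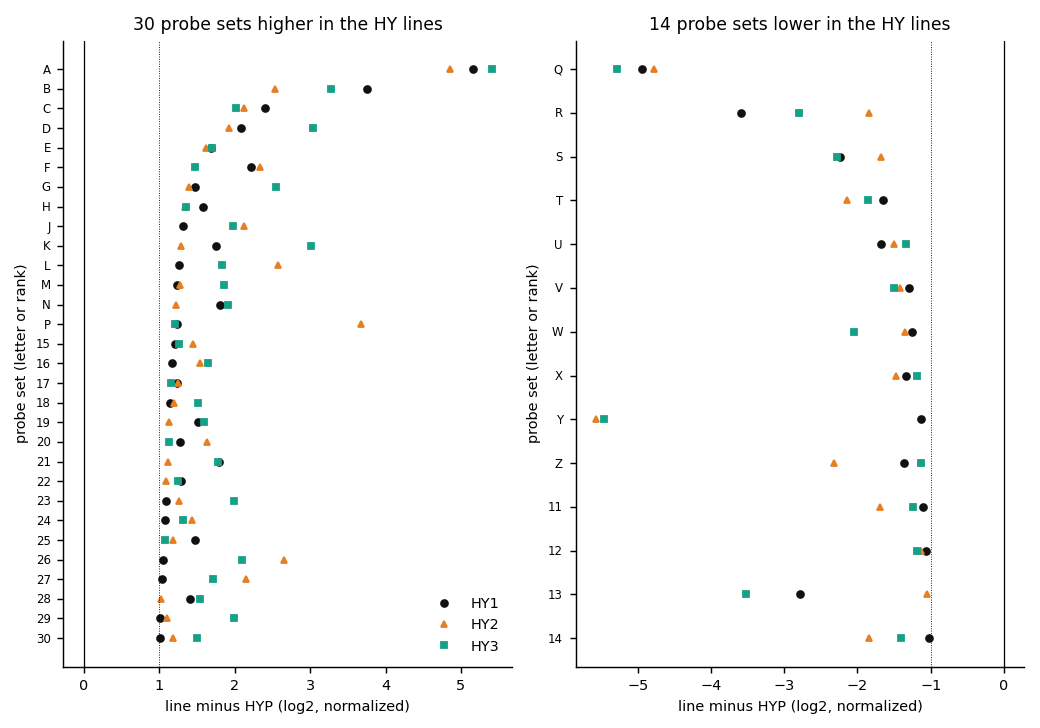
Difference of each HY line from HYP (log2, normalized) for the 30 higher (left) and 14 lower (right) probe sets, from the largest to the smallest distance of the nearest line. The dotted line marks the criterion of 1 log2 unit, and probe sets P and Y show 1 line far from the others.

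The range of the 3 HY lines was smaller than the distance of the nearest line from HYP in 36 of the 44, 25 higher and 11 lower, against 1091 of the 14417 tested. The criterion sets a least distance to HYP and so favours this order. The SD of the 3 lines had a median of 0.31 log2 units in the higher and 0.32 in the lower probe sets, against 0.32 over all probe sets tested. HY1 was the nearest line to HYP in 12 of the higher and 7 of the lower probe sets, HY2 in 12 and 4, and HY3 in 6 and 3. HY1 was the farthest line in 6 of the higher and 2 of the lower, HY2 in 10 and 6, and HY3 in 14 and 6. Over all probe sets tested HY1, HY2 and HY3 were nearest in 4742, 4977 and 4698 and farthest in 4490, 5198 and 4729. At the edge of the criterion, the last higher probe set inside had differences of 1.01, 1.18 and 1.5 log2 units in HY1, HY2 and HY3, and the first one outside 1.31, 1.41 and 1.00, where HY3 missed the limit by less than the rounding. The last lower probe set inside had -1.02, -1.84 and -1.41, and the first outside -2.40, -1.78 and -0.99.

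The identifiers show from which species the target sequences of the array were taken. The prefixes Ghi and GhiAffx, for G. hirsutum, were carried by 29 of the 30 higher (96.7%) and 12 of the 14 lower probe sets (85.7%), against 81.7% of those tested. The prefixes Gra and GraAffx, for G. raimondii, were carried by 0 higher and 2 lower (14.3%), against 17.7% of those tested. Probe sets with the plain suffix _at made up 53.3% of the higher and 64.3% of the lower, against 46.5% of those tested. The suffix _s_at, for probes shared by several transcripts, was found on 9 of the 30 higher and 3 of the 14 lower (21.4%), against 44.2% of those tested, and _x_at on 16.7% of the higher and 7.14% of the lower, against 7.63%.

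Other probe sets of the same sequence cluster gave mixed values. Of the 44, 12 shared the first part of their identifier with at least 1 other probe set on the array, and 8 of these with one that was tested. Besides T and Z, 1 partner of C came closest, with differences of 0.89, 1.24 and 1.05 log2 units in HY1, HY2 and HY3. The partner of U had -1.28, -0.93 and -0.73. The partner of G had 0.96, 0.43 and 2.03, in the same order of lines as G itself. Probe set C had 23 partners, of which 20 were tested. In 5 of these 20 all 3 HY lines were above HYP and in 5 all 3 were below it, and none met the criterion.

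The LY lines and LYP share no array with the criterion. By the same distance, all 3 LY lines lay above LYP in 2.29% and below it in 1.45% of the probe sets tested, or in 3.74% in all. Of the 30 probe sets higher in the HY lines, 6 were higher in the LY lines than in LYP by this distance: A, B, C, E, M and the one ranked 30. Of the 14 lower ones, 2 were lower by it, Q and R. None of the 44 passed it in the opposite direction. With no minimum distance, all 3 LY lines lay on the same side of LYP as the HY lines of HYP in 17 of the 44. They lay on the opposite side in 11 (25%), against 10.1% of all probe sets tested. The criterion itself puts all HY lines on one side of HYP. Of the 5376 tested probe sets with that order, 27.2% had the LY lines on the opposite side of LYP and 25.9% on the same side. The median difference between the mean of the LY lines and LYP was 0.38 log2 units over the 30 and 0.24 over the 14, against 0.00 over all probe sets tested. So the higher probe sets ranged from E and B, where the HY lines stood above HYP and the LY lines above LYP, to F and L. In F and L the LY lines lay 2.22 and 2.40 log2 units below LYP on average. All 6 lines derive from backcrosses between the 2 species, so LYP is not the only parent of the LY lines, nor HYP of the HY lines. The 2 differences are thus not those of separate crosses.

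**Figure D5:**
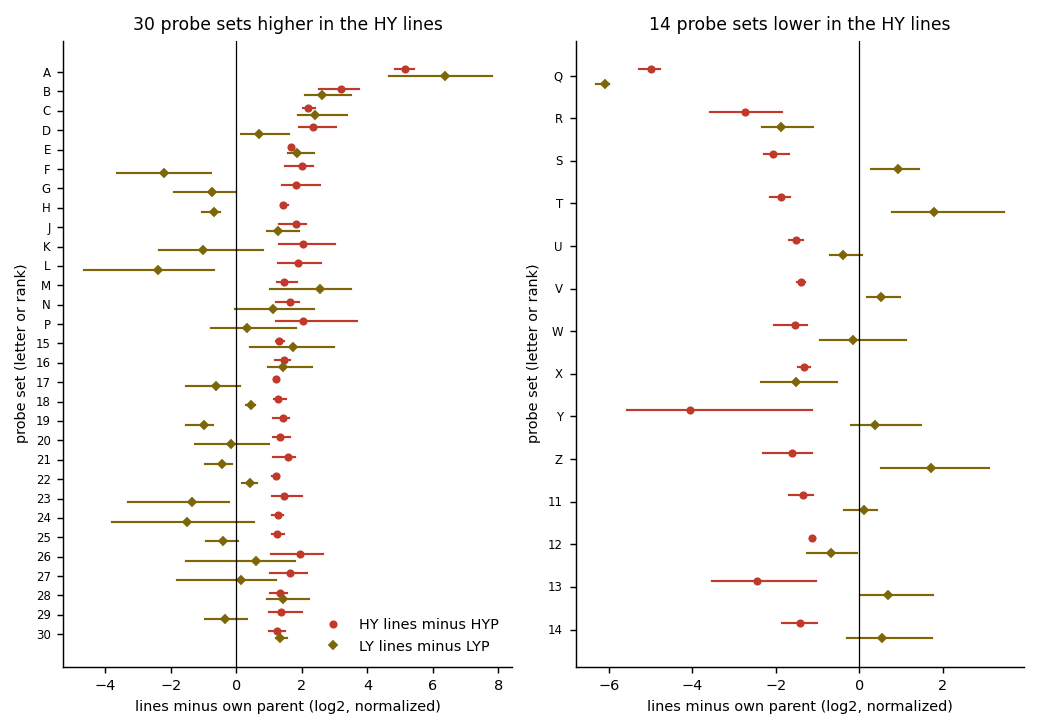
Difference of the HY lines from HYP (red) and of the LY lines from LYP (brown), in log2 units after normalization, for the 30 higher (left) and 14 lower (right) probe sets. Points are means of 3 lines and bars their range. Brown bars lie beside the red ones for A, B, C, E and Q and on the other side of 0 for F, L, T and Z.

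Set against HYP instead, the LY lines and LYP share that array with the criterion, and their values are given side by side only. Over the 30 higher probe sets the median distance above HYP was 1.51 log2 units for the mean of the HY lines, 1.98 for that of the LY lines and 1.79 for LYP. Over the 14 lower ones the median difference from HYP was -1.58 for the HY lines, -2.07 for the LY lines and -1.38 for LYP. Over all probe sets tested these medians were -0.03, -0.08 and -0.03. A single HYP array enters all of them.

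No probe set of the 44 passed the test between high-yield and low-yield lines. In limma, 0 of the 44 passed an adjusted p of 0.05 between HY and LY lines, as did 0% of the 14417 tested (lowest adjusted p = 0.99). At an unadjusted p under 0.05 there were 6 of the 44 (5 of the 30 higher than HYP and 1 of the 14 lower than HYP), where 2.12% of all probe sets tested had one. All 6 were lower in the HY than in the LY lines, by log2 differences of -0.71 to -1.56. The HY and LY lines did not overlap in 6 of the 44, against 6.21% of those tested. The largest difference at an unadjusted p under 0.05 was that of the probe set ranked 16 among the higher ones, which had 21.0, 65.7 and 37.4 in the HY lines and 469.1, 175.2 and 69.0 in the LY lines (log2 difference -1.56 ± 0.41, SE; limma, adjusted p = 0.99). The one among the 14 was probe set V, with 5.0, 6.3 and 3.1 in the HY lines and 30.1, 34.6 and 24.9 in the LY lines. Its HYP signal was 44.8 and its LYP signal 11.7. The HY arrays enter this contrast and the criterion alike, and the replicates are different lines with 1 array each. The p-values set the difference against the spread between these lines, in which line, preparation and array cannot be told apart.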

How the data were processed

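Fibre RNA of 8 cotton genotypes was measured on 1 array each. Per the submitters' processing notes, the deposited intensity values were made with GCOS and MAS5. The version and scaling target are not given in the sources used here. The table had 24132 probe sets, and 103 AFFX controls were left out. Values were transformed as log2(signal + 16), so fold changes of dim probe sets are understated. The 8 arrays were quantile normalized (limma 3.58.1, R 4.3.3), and the dimmest 40% by mean level were dropped. A probe set that was high in only 1 of the compared groups could pass this filter through that group. The number of arrays limits the precision.

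HY and LY lines were compared with lmFit and eBayes in limma with an intensity trend and Benjamini-Hochberg adjustment over the 14417 probe sets. This fit and the criterion were run on simulated data with independent noise and known shifts. The simulation held no differences in scaling or RNA quality between arrays, so it cannot show how the fit or the criterion respond to them. Identifiers were to be named by rank among members above the median level. None of the identifiers matched the 74561 genes of the G. barbadense reference table, which limits printed identifiers to 2 per direction, and no gene list or marker list could be applied. Members, lists and settings were chosen with earlier results of these data known. Deviations of HY and LY lines of the same number from their group means had r = -0.24, 0.19 and 0.54. Deviations within a group are not independent of each other, so these values cannot settle whether the numbers pair the lines. The main fit took the lines as unpaired. Figures used matplotlib 3.10.9.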

Additional observations from a re-analysis of the deposited data

Results flagged for a closer look

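For 11 of the 44 probe sets every HY line lay to one side of HYP while every LY line lay to the opposite side of LYP in the normalized levels, against 10.1% of all probe sets tested. Of the 5376 tested probe sets with all HY lines on one side of HYP, as the criterion requires of the 44, 27.2% had all LY lines on the opposite side of LYP and 25.9% had them on the same side. Of the 44, 25% and 38.6% did (11 and 17). On the deposited values 7 of the 11 did so. The difference between these effects was not tested, since each parent had 1 array, and the parents are of different species. Among the higher probe sets, the mean difference of the HY lines from HYP exceeded that of the LY lines from LYP by 4.28 log2 units for L, 4.23 for F, 2.80 for the one ranked 23, 2.41 for the one ranked 19, 2.12 for H and 1.99 for the one ranked 21. Among the lower probe sets the difference was -3.68 for T, -3.33 for Z, -3.15 for the one ranked 13, -2.99 for S and -1.92 for V. T and Z come from one sequence cluster. On the deposited values F, L, the higher probe sets ranked 19 and 23 and the lower one ranked 13 did not meet the criterion. No group held 4 arrays, so single outlying arrays were not looked for.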

How the results depend on the processing

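All alternatives were planned, with earlier results of these data known. The 44 probe sets (30 higher, 14 lower) became 246 (210 and 36) at pseudocount 1. At pseudocount 64 there were 10 (5 and 5). Without further normalization there were 9 higher and 50 lower, with median centring 33 lower, and with cyclic loess 46 higher. With probe sets of suffix _at or _a_at alone (fewer were tested) there were 26, of which 16 were higher, and leaving out the lowest 60% left 8 lower. A limit of 4-fold gave 4 (3 and 1) and one of 1.5-fold gave 283 (198 and 85). Leaving out a line loosens the criterion: the counts were 113 (85 and 28) without HY1, 157 (93 and 64) without HY2 and 117 (89 and 28) without HY3. Of the 44, 44 were kept with a pseudocount of 1, 10 with 64, 22 on the deposited values, 37 with median centring, 43 with cyclic loess and 42 with the 4 arrays normalized alone.

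Of the 44, 8 had all LY lines at least 1 log2 unit from LYP in the direction of the HY lines. Over all 14417 probe sets tested, 539 had them at that distance in either direction. With a pseudocount of 1 the counts were 27 of 246, against 1134 of all tested, and with 64 they were 3 of 10, against 210 of all tested. The 6 with an unadjusted p under 0.05 between HY and LY lines (305 of all tested) became 19 (274) with a pseudocount of 1, 0 (302) with 64 and 7 (647) with the replicate block. They were 3 (153) without HY1, 2 (73) without LY1 and 17 (481) without LY2, or 2 to 17 of the 44 (73 to 1823) over all single lines left out. None of the 44 passed the adjusted threshold in limma under any of these settings (lowest adjusted p 0.37, without LY3). Unless stated, the cause of a change was not tested. Near background the pseudocount enters the size of a difference, and 10 of the 44 were kept with one of 64.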
